A study of Mus musculus with 8 samples.

Results

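A set of 9 genes of the distal nephron that carry salt, potassium, calcium or magnesium, or that mark the segments doing so, were followed across the cell types of the fetal mouse kidney and between mutant and control mice. They were chosen by name, as the rows of Umod, Slc12a1, Slc12a3, Kcnj1, Trpm6, Calb1, S100g, Slc8a1 and Scnn1b among the 32285 genes of the count matrix, and all 9 rows were found. The study asked what loss of TRIM28, a corepressor that silences transposable elements and their neighbourhoods, does to the kidney when it is removed from nephron progenitors. The single-cell data came from 1 pool of dissociated kidneys of male embryos, staged E17.5 by the labels and a day later by the study's methods. The pool, dissociated with a cold-active protease, held 2 Trim28Δ/Δ embryos (mice 1 and 2, named ko in the tag list) and 2 Trim28f/f embryos (mice 3 and 4, named wt). In Trim28Δ/Δ embryos both floxed alleles were recombined by a Six2-cre transgene, whose driver is active in nephron progenitors, so that tubule segments derived from them were targeted and the ureteric bud and collecting duct were not. Trim28f/f embryos carry both floxed alleles, unrecombined, and cells of 4 further tags that the list does not name were left out.

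The distal nephron adjusts the salt content of the urine step by step. In the thick ascending limb of the loop of Henle, NKCC2 (Slc12a1) takes up sodium, potassium and chloride, the potassium channel ROMK (Kcnj1) returns potassium to the lumen, and uromodulin (Umod) is secreted as the main protein of normal urine. In the distal convoluted tubule, NCC (Slc12a3), the target of thiazides, takes up sodium chloride and the channel TRPM6 (Trpm6) takes up magnesium. Calcium crosses the late distal convoluted tubule and the connecting tubule bound to calbindin-D28k (Calb1) and calbindin-D9k (S100g) and leaves through the sodium-calcium exchanger NCX1 (Slc8a1), while the epithelial sodium channel, of which Scnn1b encodes the beta subunit, works from the connecting tubule into the collecting duct.

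The promoter windows of 2 loop genes and 2 distal tubule genes are shown because each pair was highest in 1 class of cells. The windows run from 250 bases before to 50 bases after the RefSeq start in GRCm38.p6, on the gene's own strand, and 8 of the 9 genes had a window. Capitals mark the letters GTTAAT of an HNF1 half-site and GCCNNNGGC of an AP-2 motif, searched on both strands, and TATAAA of a TATA box, searched on the forward strand. The Umod window lies at chr7:119479213-119479512 (minus strand), that of Slc12a1 at chr2:125152350-125152649 (plus strand), that of Slc12a3 at chr8:94328958-94329257 (plus strand) and that of S100g at chrX:162964550-162964849 (minus strand).
Umod: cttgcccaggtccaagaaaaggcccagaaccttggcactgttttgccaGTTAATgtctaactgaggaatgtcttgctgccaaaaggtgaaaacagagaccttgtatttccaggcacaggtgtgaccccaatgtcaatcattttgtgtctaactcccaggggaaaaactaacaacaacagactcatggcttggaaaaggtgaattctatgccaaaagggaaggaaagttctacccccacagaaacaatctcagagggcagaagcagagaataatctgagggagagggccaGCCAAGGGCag
Slc12a1: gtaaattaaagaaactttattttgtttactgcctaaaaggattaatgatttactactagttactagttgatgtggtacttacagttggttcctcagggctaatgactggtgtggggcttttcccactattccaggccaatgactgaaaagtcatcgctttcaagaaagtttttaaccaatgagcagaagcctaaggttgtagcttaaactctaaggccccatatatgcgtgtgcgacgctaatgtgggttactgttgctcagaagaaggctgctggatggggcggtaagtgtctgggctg
Slc12a3: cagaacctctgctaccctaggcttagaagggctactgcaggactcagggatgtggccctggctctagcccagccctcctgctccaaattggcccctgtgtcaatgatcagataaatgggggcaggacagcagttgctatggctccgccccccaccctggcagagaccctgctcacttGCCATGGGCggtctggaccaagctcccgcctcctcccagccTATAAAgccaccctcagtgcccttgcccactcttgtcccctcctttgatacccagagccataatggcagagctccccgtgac
S100g: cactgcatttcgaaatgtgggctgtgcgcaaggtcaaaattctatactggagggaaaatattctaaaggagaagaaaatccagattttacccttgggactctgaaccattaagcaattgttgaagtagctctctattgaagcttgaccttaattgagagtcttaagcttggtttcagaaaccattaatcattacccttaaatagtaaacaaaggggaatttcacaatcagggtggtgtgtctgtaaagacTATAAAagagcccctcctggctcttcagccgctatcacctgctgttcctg

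Umod held an HNF1 half-site at position -202, counted from 0 at the start, and an AP-2 motif at 39, and Slc12a3 held an AP-2 motif at -73 and a TATA box at -32. S100g held a TATA box at position 0, and Slc12a1 held none of the 3 motifs. Among the 4 other windows only that of Trpm6 had a match, an AP-2 motif at -68. Of all 32851 promoter windows of this length, 7.10% held the HNF1 half-site, 16.6% the AP-2 motif and 8.32% the TATA box, shares against which single matches are to be read.

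A total of 7348 cells could be assigned to a mouse, 1320 and 1451 to the knockout mice and 2724 and 1853 to the control mice, with a median of 16519 to 17411 unique molecular identifiers (UMIs, counted transcript molecules) per cell. The cells fell into 23 clusters, which gave 16 classes named "-like" after their markers and 5 unnamed clusters. None of the 9 genes was a marker, but 8 of them were among the 3000 variable genes used for clustering. The classes are therefore not independent of the levels of these genes. Of 113 markers, 95 were highest in the class they stand for. As the classes were named from these same markers, this count and those that follow are no independent check of the names. The 528 loop of Henle-like cells, 117 and 107 of knockout and 204 and 100 of control mice, had 7 of 8 markers at the highest level of any class, with Foxq1 as the exception. The 231 distal tubule-like cells, 56 and 38 of knockout and 96 and 41 of control mice, had 6 of 8, with Tfap2a and Tfap2b as exceptions. Trim28 itself, counted at a 3′ end that the deletion leaves in place and therefore no check of the deletion, stood at 21.8 and 28.9 against 73.9 and 84.5 CPM (UMIs of the gene per 1000000 UMIs of the class) in loop cells and at 19.3 and 33.8 against 85.1 and 66.6 CPM in distal tubule-like cells. It was lower by the test in both (log2 change -1.66, adjusted p = 0.0466, and -1.58, adjusted p = 0.0288), while in principal-like and ureteric bud-like cells, which do not come from the targeted progenitors, its log2 changes were 0.18 and 0.02 (adjusted p = 0.940 and 0.9999). The call was lost under 5 of 12 alternatives in loop cells, among them without knockout mouse 2 (adjusted p = 0.102), and under 4 of 12 in distal tubule-like cells, among them without knockout mouse 1 (adjusted p = 0.519). Control mouse 3 stood apart, because 101 of the 103 cells of subcluster 4 and 97 of the 99 cells of subcluster 5 of the distal nephron were its own. Subcluster 4 was led by Hbb-y, Gm45847 and D430019H16Rik, and subcluster 5 by Ifit3, Fosl2 and Ddit3. What sets this control mouse apart was not tested.

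**Figure D1:**
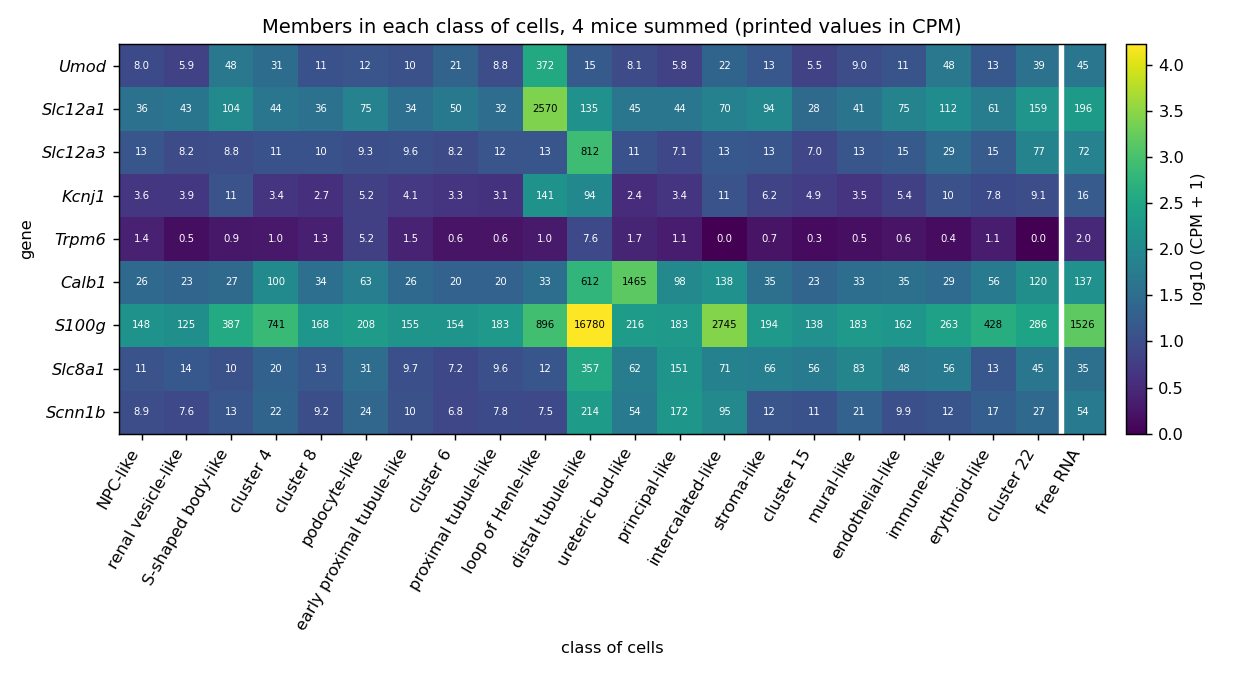
Level of the 9 genes (rows) in each class of cells (columns), as CPM summed over the 4 mice, with the colour on a log10 (CPM + 1) scale. Slc12a1, Umod and Kcnj1 peak in loop of Henle-like cells, Slc12a3, S100g, Slc8a1, Scnn1b and Trpm6 in distal tubule-like cells and Calb1 in ureteric bud-like cells.

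The thick ascending limb genes were highest in the loop class, and outside it Slc12a1 and Umod lay near or below the level of free RNA, that is RNA outside cells, measured in 353040 barcodes of 10 to 100 UMIs. Positions are those of the GENCODE annotation of GRCm38. All levels below are CPM of a class, compared within a gene and not between genes. A level below free RNA does not by itself show that a class lacks a gene. The lowest classes stood at 0.08 of free RNA for S100g and 0.15 for Calb1. Slc12a1 (chromosome 2, 125152505 to 125230002) stood at 2569.7 CPM in loop cells over the 4 mice, followed by 159 CPM in unnamed cluster 22 and 135 CPM in distal tubule-like cells, with 196 CPM in free RNA. Umod (chromosome 7, 119462711 to 119479282) stood at 372 CPM in loop cells, and the next classes, immune at 48.0 and S-shaped body-like at 47.8 CPM, were close to the 44.9 CPM of free RNA. Kcnj1 (chromosome 9, 32372493 to 32399197) was found in both distal classes, at 141 CPM in loop cells and 94.1 CPM in distal tubule-like cells, against at most 11.3 CPM in any other class and 15.6 CPM in free RNA. After every cell was thinned to 6800 UMIs, 87.1% of loop cells held a UMI of Slc12a1, 45.3% of Kcnj1 and 41.3% of Umod, against 26.2%, 3.24% and 5.41% of stroma-like cells, which should lack these genes. Unthinned, the loop shares were 92.6%, 66.1% and 55.9% and the stroma shares 38.4%, 5.41% and 7.57%, at a median of 17052 UMIs in loop and 10602.5 UMIs in stroma-like cells.

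Distal tubule-like cells were the highest class for 5 of the 9 genes. Slc12a3 (chromosome 8, 94329201 to 94366214) stood there at 812 CPM, with 77.1 CPM in cluster 22 as the next level and 72.5 CPM in free RNA. Trpm6 (chromosome 19, 18749983 to 18892511) was scarce everywhere, at 7.57 CPM in distal tubule-like and 5.22 CPM in podocyte-like cells, against 2.0 CPM in free RNA, and only 42 of its UMIs were counted in the distal tubule class. Slc8a1 (chromosome 17, 81373105 to 81738377) followed the order distal tubule-like, principal-like and mural-like, at 357, 151 and 82.6 CPM. Scnn1b (chromosome 7, 121865038 to 121918514) followed the order distal tubule-like, principal-like and intercalated-like, at 214, 172 and 94.7 CPM, and the first pair overlapped between mice, with 125 to 289.8 CPM in the one and 154 to 203 CPM in the other. After thinning 55.4% of distal tubule-like cells held a UMI of Slc12a3, 53.2% of Scnn1b and 47.6% of Slc8a1, against 7.84%, 8.11% and 30.5% of stroma-like cells. Unthinned, the shares were 65.4%, 65.8% and 57.6% in distal tubule-like cells and 12.2%, 12.7% and 43.0% in stroma-like cells.

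The calbindin genes differed in where they were found. Calb1 (chromosome 4, 15881264 to 15908064) was highest in ureteric bud-like cells, at 1465 CPM, and second in distal tubule-like cells at 612 CPM, while the intercalated-like class at 138 CPM was at the level of free RNA (137 CPM). S100g (chromosome X, 162961992 to 162964599) stood at 16779.9 CPM in distal tubule-like cells. It was the gene with the most free RNA of the 9, at 1526 CPM, and 72.2% of stroma-like cells held a UMI after thinning, so that a UMI of S100g in a cell is not read as expression. Only the intercalated-like class, at 2745 CPM, was also above free RNA, and there 6 cells held 92.6% of the UMIs.

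**Figure D2:**
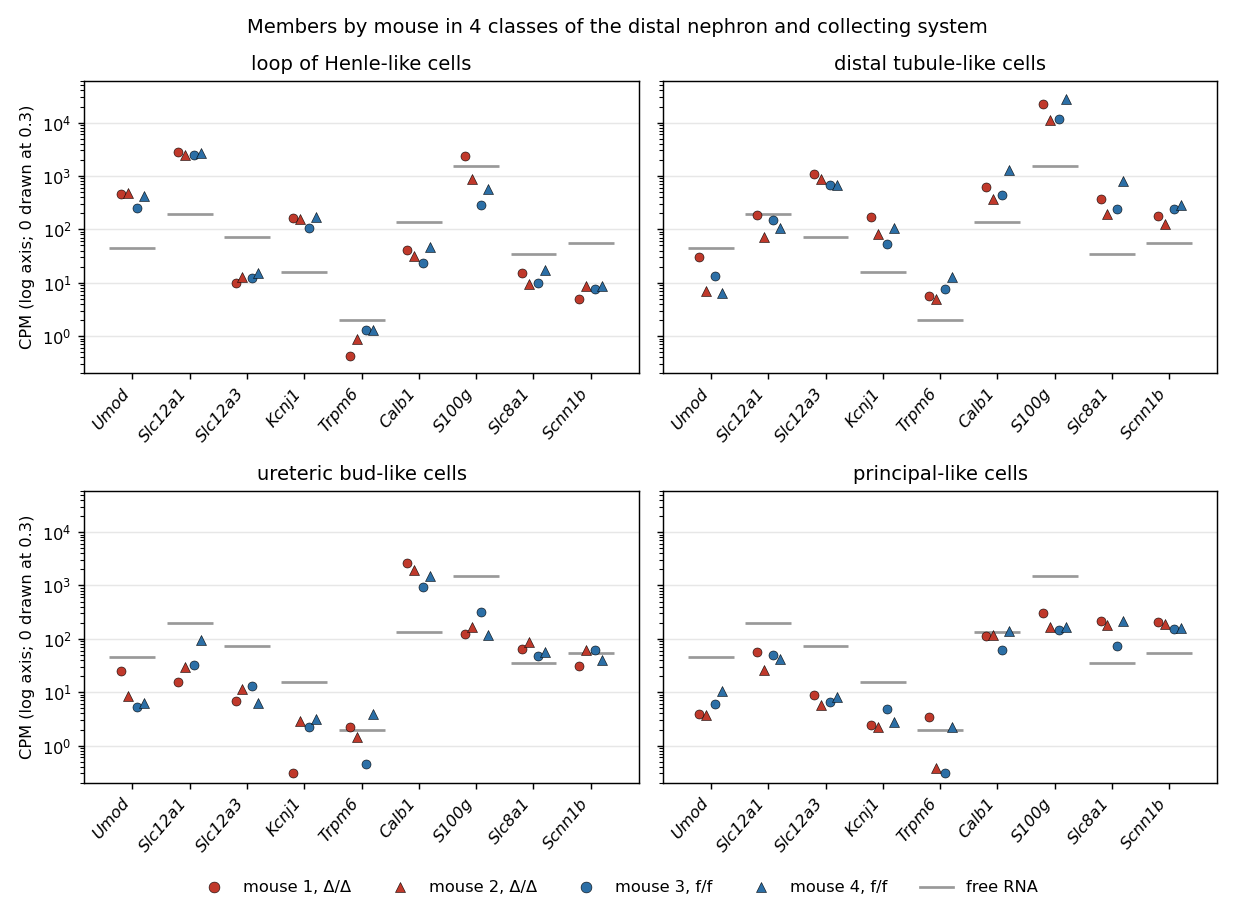
Level of the 9 genes in each mouse in 4 classes of the distal nephron and collecting system, in CPM on a log axis, with Trim28Δ/Δ and Trim28f/f mice in separate colours grey lines for free RNA and a level of 0 drawn at 0.3. In loop of Henle-like cells S100g lies at 2404 and 861 CPM in knockout and at 281 and 576 CPM in control mice.

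When loop of Henle-like and distal tubule-like cells were clustered again without the 9 genes and without 43 other transport genes, 6 subclusters resulted, numbered 0 to 5. Subcluster 0, 181 cells, held Slc12a1 at 3366 CPM, Kcnj1 at 221 CPM and Umod at 492 CPM. Its leading genes were Aard, Ptgs2, Eprn, Anxa1, Akr1b8, Pappa2, Ranbp3l, Hspa1a, Rgs2, Hspb1, Nos1 and Col4a3. Of these, Ptgs2, Pappa2 and Nos1 are known from the macula densa and the limb around it, and no name is read from them. Subcluster 1, 126 cells led by Epha4 and Spon1, held a similar Umod level, 476 CPM, but Slc12a1 at 877 CPM and Kcnj1 at 62.1 CPM. The 126 cells of subcluster 2 were all distal tubule-like and held the highest levels of the calcium genes and of Scnn1b, with S100g at 29272 CPM, Calb1 at 1068 CPM, Slc8a1 at 628 CPM, Scnn1b at 368 CPM and Slc12a3 at 1049 CPM. In the other 105 distal tubule-like cells Calb1 stood at 50.7 CPM, Slc8a1 at 22.9 CPM and Scnn1b at 24.5 CPM, all below free RNA, while Slc12a3 was still at 521 CPM. Subcluster 3, drawn from both classes with 58 loop and 66 distal tubule-like cells, held Slc12a1 at 1812 CPM, Slc12a3 at 366 CPM and Umod at 15.7 CPM, as a sum over this mix of cells. The Slc12a3 level there differed between mice, at 557 and 133 CPM in knockout and 1204 (5 cells) and 152 CPM in control mice, and 677 of its 1070 UMIs came from knockout mouse 1.

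The genes were also counted together in single cells, at 2 or more UMIs after thinning. In loop cells 125 of the 126 Kcnj1 cells also held Slc12a1, and 122 of the 157 Umod cells did. In distal tubule-like cells all 86 Scnn1b cells held S100g, and 53 of them held Slc8a1, while Slc12a3 and Calb1 shared 38 cells, which were 38.4% of the Slc12a3 cells and 47.5% of the Calb1 cells. Slc12a1 and Slc12a3 were rarely counted in the same cell, in 5 of the 99 Slc12a3 cells of the distal tubule class and in 1 loop cell. Because free RNA of S100g was abundant, its overlaps are given as counts and no more is read from them.

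**Figure D3:**
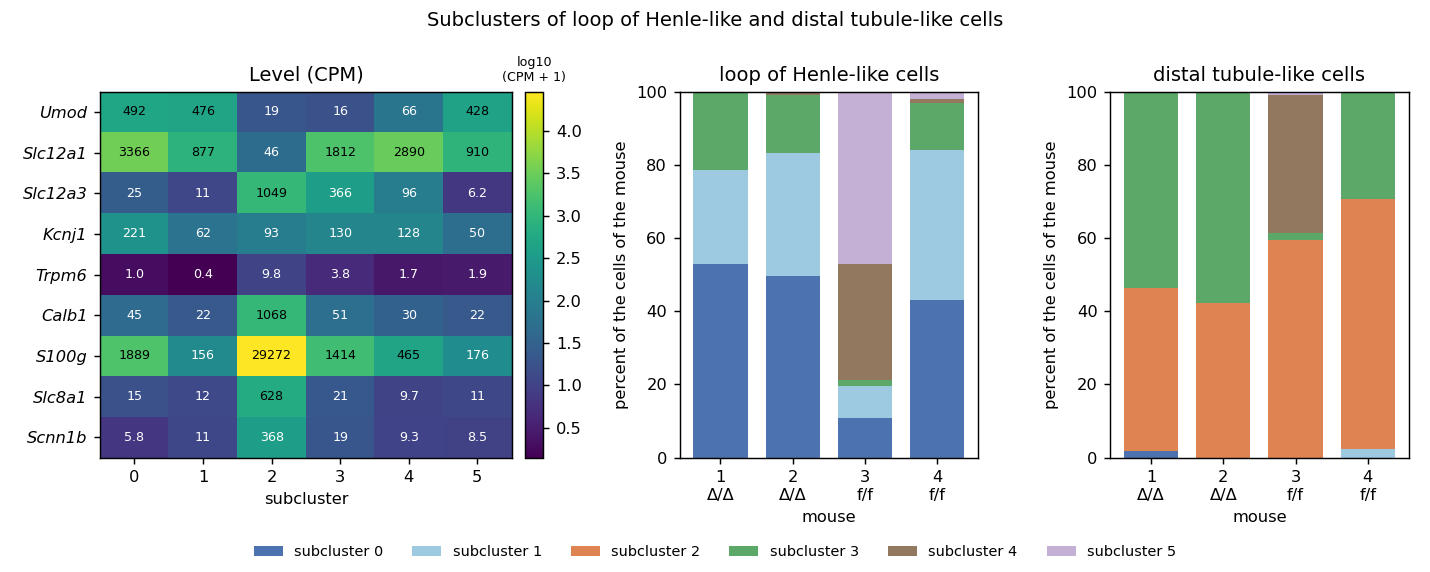
Subclusters of loop of Henle-like and distal tubule-like cells, with the level of the 9 genes in each subcluster on a log10 (CPM + 1) colour scale and the percent of each mouse's cells in each subcluster as stacked bars. Subclusters 4 and 5 come almost wholly from control mouse 3, and subcluster 2 makes up 44.6% and 42.1% of the distal tubule-like cells of knockout and 59.4% and 68.3% of those of control mice.

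In loop of Henle-like cells none of the salt transport genes passed the test between genotypes. Slc12a1 stood at 2778 and 2457 CPM in knockout and at 2438 and 2725 CPM in control mice. The groups overlapped, and the log2 change of knockout over control was 0.00 (SE 0.13, adjusted p = 0.997). Kcnj1 stood at 160.4 and 159 CPM in knockout and at 107 and 169 CPM in control mice, again with overlap (log2 change 0.21, SE 0.23, adjusted p = 0.846). Umod stood at 460.2 and 474 CPM in knockout and at 252 and 417 CPM in control mice. Both knockout levels were higher than both control levels, and the log2 change of 0.47 (SE 0.23) did not pass the test (adjusted p = 0.683). The difference rested on control mouse 3, without which the log2 change was 0.15 (adjusted p = 0.815), and it was 0.86 without control mouse 4. The thinned share of cells with a UMI of Umod overlapped, at 41.9% and 38.3% in knockout and 42.6% and 41.0% in control mice. Without subclusters 4 and 5 the Umod level of control mouse 3 was 126 CPM in place of 252 CPM.

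S100g had the largest change of the 9 genes in the loop class, at 2404 and 861 CPM in knockout against 281 and 576 CPM in control mice. The groups did not overlap, knockout mouse 1 stood far above the other 3 mice, and the log2 change of 1.93 (SE 0.49) did not pass over all genes (adjusted p = 0.390). Only the level of knockout mouse 1 was above the 1526 CPM of free RNA. The level rested on few cells. Of the 528 loop cells 38 had at least 50 S100g UMIs, and they held 76.5% of all S100g UMIs of the class. They made up 15.4% (95% Clopper-Pearson interval 9.38 to 23.2) and 9.35% (4.57 to 16.5) of loop cells in knockout mice and 1.96% (0.537 to 4.94) and 6.0% (2.23 to 12.6) in control mice. The shares did not overlap between genotypes, and the exact permutation test over mice (two-sided) gave p = 0.33, the smallest that 2 against 2 mice allow. Without these cells S100g stood at 303 and 253 CPM in knockout and 204 and 187 CPM in control mice. These levels did not overlap, but all were far below free RNA. The median of the 20 classes other than distal tubule-like cells was 189 CPM. As the cells were cut by the level compared, the remainder is a description.

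The 38 loop cells rich in S100g had Umod at 56.1 CPM against 399 CPM in the other loop cells, with more Slc12a1 (3508 against 2489 CPM), more Cldn16 (307 against 118 CPM, though 62.5 against 129 CPM in control mouse 4) and less Cldn10 (283 against 841 CPM), these last encoding tight junction claudins of the thick limb. Slc8a1 was at 37.4 against 10.2 CPM, on 34 UMIs, and higher in the rich cells of all 4 mice. Only those of control mouse 4 (125 CPM) were above the 35.1 CPM of free RNA, with 22.6, 14.0 and 26.1 CPM in mice 1, 2 and 3. Calb1, at 84.7 against 28.7 CPM, rested on control mouse 4, where the rich cells stood at 444 CPM, while in the other mice they stood at 20.1, 23.4 and 0 CPM, below the 44.9, 32.4 and 24.0 CPM of the other loop cells. Slc12a3, at 29.7 against 11.1 CPM, was likewise at 139 CPM in the rich cells of control mouse 4 and at 12.6, 9.35 and 0 CPM in those of the other mice. Of the distal tubule markers, Emx1 was at 24.2 against 6.34 CPM, though at 4.68 against 7.74 CPM in knockout mouse 2. Tmem52b was at 275 against 229 CPM and higher in all 4 mice. Trpv6 (6.60 against 1.14 CPM) and Trpv5 (2.20 against 0.284 CPM) rested on 6 and 2 UMIs in the rich cells. Whether the rich cells hold RNA of distal tubule cells was not tested. As these cells were picked by a measured level, and the claudins were named after their values were seen, the values are a description. The 8 distal tubule markers summed to 876 and 782 CPM in loop cells of knockout and 703 and 843 CPM in those of control mice, with overlap, and none of the 8 was higher and 3 were lower in both knockout mice than in both controls, with 1 marker at 0. The 7 ureteric bud markers summed to 279.7 and 224 CPM in knockout and 125 and 236 CPM in control mice, the 7 principal cell markers to 95.7 and 93.0 CPM and to 104 and 77.5 CPM, and the 8 loop markers to 1987 and 1867 CPM and to 1654 and 2013 CPM. All 3 sums overlapped, although 3, 3 and 4 markers of these lists were higher in both knockout mice, and 2 of the loop markers were lower. None of these markers was at 0. How many of all genes were higher or lower in both knockout mice was not counted here, and the part of any of these lists in the S100g result was not tested.

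Of the 38 cells, 29 belonged to subcluster 0. This subcluster held 53.0% and 49.5% of the loop cells of knockout and 10.8% and 43.0% of those of control mice, and in control mouse 3 subclusters 4 and 5 held 31.9% and 47.1% of the loop cells. Inside subcluster 0 S100g stood at 3645 and 1243 CPM in knockout and 449.9 and 1001 CPM in control mice, also without overlap. There too only knockout mouse 1 was above free RNA. The part of this mix in the S100g level of the class was not tested.

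**Figure D4:**
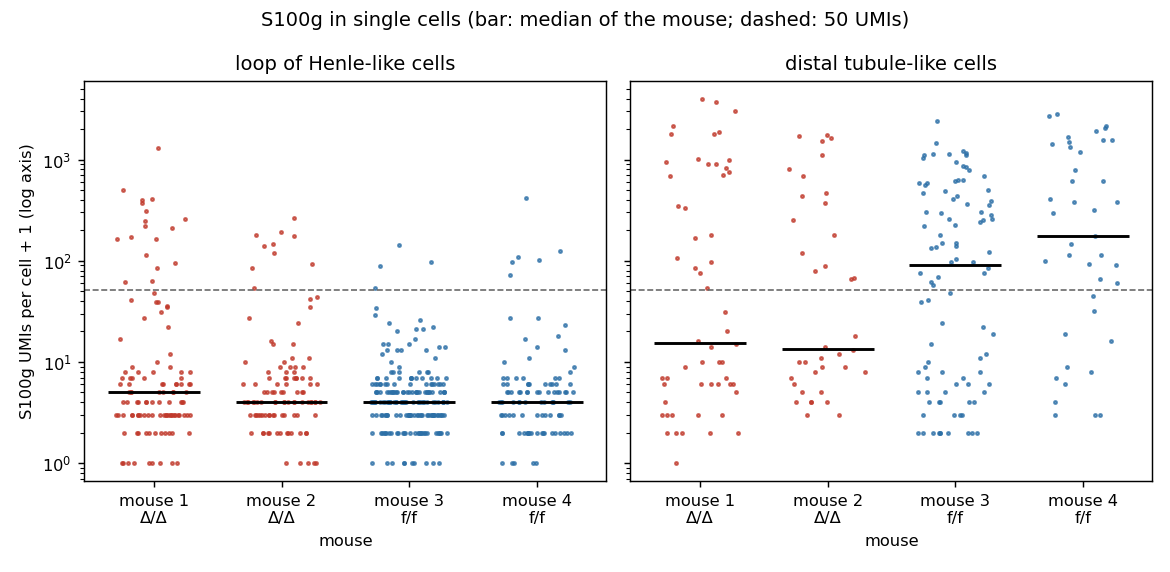
S100g UMIs per cell plus 1 (log axis) in loop of Henle-like and distal tubule-like cells of each mouse, each point a cell, with the median of the mouse as a bar and 50 UMIs as a dashed line. Above the line lie 18 and 10 loop cells of knockout and 4 and 6 of control mice, and 25 and 17 distal tubule-like cells of knockout and 54 and 29 of control mice.

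Over the distal tubule-like class the S100g level was 22084 and 11362 CPM in knockout and 11707 and 28165 CPM in control mice, with overlap, and its log2 change was -0.28 (SE 0.46, adjusted p = 0.964). The share of cells with at least 50 S100g UMIs did not overlap, at 44.6% (31.3 to 58.5) and 44.7% (28.6 to 61.7) in knockout and 56.3% (45.7 to 66.4) and 70.7% (54.5 to 83.9) in control mice (exact permutation p = 0.33), lower in both knockout mice where the loop share was higher. The ratio of the distal tubule to the loop level was 9.19 and 13.2 in the knockout mice and 41.7 and 48.9 in the control mice. In a fit of both classes with the mouse as a block, the change in distal tubule-like cells was lower than that in loop cells by a log2 difference of -2.03 (SE 0.15, adjusted p = 1.19e-06). This SE and p-value borrow spread from all genes tested. They do not measure the spread between the mice alone, of which each genotype has 2. Of 11452 genes tested for this difference 32 passed (0.279%), and of the 9 members S100g was the one that did. For Slc12a3 (0.80, adjusted p = 0.459) and Calb1 (-0.78, adjusted p = 0.347) the differences between the classes did not pass.

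None of the other genes passed the test in distal tubule-like cells, and their log2 changes had both signs. Slc12a3 stood at 1103 and 884 CPM in knockout and at 685 and 669.5 CPM in control mice, so that both knockout levels were higher, with a log2 change of 0.53 (SE 0.21) that did not pass (adjusted p = 0.523). Over 12 alternatives this change ran from 0.35 to 0.86. Scnn1b stood at 179.8 and 125 CPM in knockout and at 239 and 289.8 CPM in control mice. Both knockout levels were lower, and the log2 change of -0.80 (SE 0.22) did not pass either (adjusted p = 0.222). Slc8a1 stood at 369 and 194 CPM in knockout and at 238 and 809 CPM in control mice, and Calb1 at 619 and 369 CPM and at 445 and 1276 CPM. In both, control mouse 4 was high and the other mice overlapped, with log2 changes of -0.90 (SE 0.45, adjusted p = 0.678) and -0.82 (SE 0.40, adjusted p = 0.676). Kcnj1 stood at 171 and 82.5 CPM in knockout and at 52.8 and 108 CPM in control mice, and its 2 groups overlapped. Its log2 change of 0.72 ran from 0.05 without knockout mouse 1 to 1.29 without control mouse 4. The thinned share of cells with a UMI of Slc8a1 was 42.9% (95% interval 29.7 to 56.8) and 31.6% (17.5 to 48.7) in knockout and 52.1% (41.6 to 62.4) and 58.5% (42.1 to 73.7) in control mice, which did not overlap while the intervals did (exact permutation p = 0.33). Thinned shares of 3 other genes did not overlap either (exact permutation p = 0.33 for each). How often thinned shares fail to overlap over all genes was not counted, so that nothing is read from these splits. Cells with Calb1 were 25 of 56 and 19 of 38 in knockout and 53 of 96 and 26 of 41 in control mice, and those with Scnn1b 28 of 56 and 16 of 38 against 55 of 96 and 24 of 41, both lower in knockout mice. Cells with Slc12a3 were 37 of 56 and 22 of 38 in knockout and 47 of 96 and 22 of 41 in control mice, higher in knockout mice. Trpm6 had 7 and 5 UMIs in knockout and 18 and 12 in control mice and was too low to be tested.

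The share of the calcium and sodium channel rich subcluster 2 differed in the same direction as Scnn1b. It made up 44.6% (95% interval 31.3 to 58.5) and 42.1% (26.3 to 59.2) of distal tubule-like cells in knockout mice and 59.4% (48.9 to 69.3) and 68.3% (51.9 to 81.9) in control mice, with no overlap (exact permutation p = 0.33). The intervals cover counting error only. Subcluster 3 made up 53.6% and 57.9% in knockout and 2.08% and 29.3% in control mice. Control mouse 3 had 37.5% of its distal tubule-like cells in subcluster 4, where the other mice had none, and without this mouse the one control share left was 68.3% for subcluster 2 and 29.3% for subcluster 3. Inside subcluster 2 Scnn1b overlapped, at 395 and 261 CPM in knockout and 367 and 417 CPM in control mice. Calb1 (1443 and 799 against 682 and 1840.1 CPM) and Slc8a1 (871 and 446 against 369 and 1156 CPM) overlapped there as well. Slc12a3 did not, at 1313 and 1835 CPM in knockout and 836 and 822 CPM in control mice, and neither did Kcnj1, at 181 and 126 CPM in knockout and 46.3 and 109.7 CPM in control mice. The summed level of markers of principal cells, the cells that share the sodium channel, was lower in both knockout mice over the whole class. The 7 markers summed to 702 and 699.9 CPM in knockout and 1301 and 1582 CPM in control mice. Of the 7, 4 (Aqp2, Aqp3, Fxyd4 and Elf5) were lower in both knockout mice than in both controls. Avpr2, Hsd11b2 and Gata3 overlapped, and none of the 7 was at 0. The 7 intercalated cell markers summed to 254 and 245 CPM in knockout and 388 and 515 CPM in control mice, with 5 of the 7 lower in both knockout mice and none at 0. The 8 distal tubule markers did not overlap either, at 2269 and 2257 CPM in knockout and 1773 and 2004 CPM in control mice, with 5 higher and 3 lower in both knockout mice, and the 7 ureteric bud markers summed to 196 and 184 CPM against 126 and 142 CPM, with 2 higher in both knockout mice. How many of all genes were higher or lower in both knockout mice was not counted, so that nothing is read from these counts of markers. The part of the mix of cells in the class levels was not tested.

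**Figure D5:**
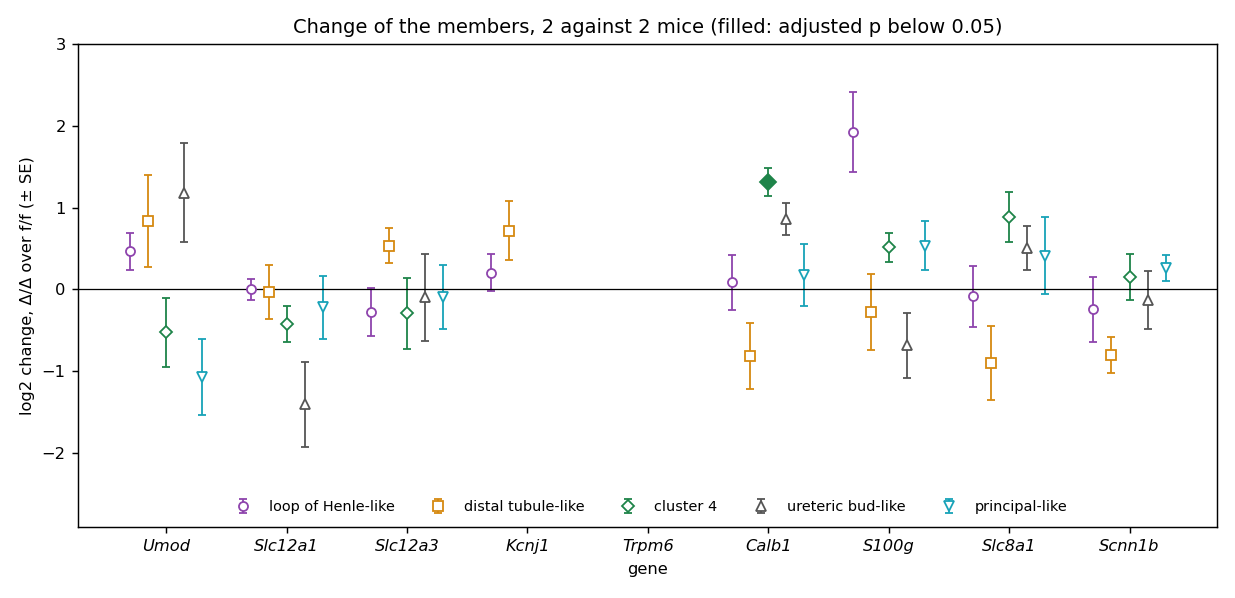
Log2 change of each gene, Trim28Δ/Δ over Trim28f/f, with its standard error, in loop of Henle-like, distal tubule-like, ureteric bud-like and principal-like cells and cluster 4, from 2 against 2 mice, with a filled symbol where the adjusted p is below 0.05. The one filled symbol is Calb1 in cluster 4, at 1.31, and a gene without a symbol in a class was not tested there.

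Of the 8 genes tested in loop of Henle-like cells none passed by edgeR or DESeq2, against 15 of 10921 genes called in that class by edgeR (0.137%) and 45 of 12903 by DESeq2 (0.349%). At an unadjusted p below 0.05 was 1 of them by either tool, against 824 of all genes by edgeR (7.55%). Of the 8 tested in distal tubule-like cells none passed by either tool, against 49 of 9054 genes by edgeR (0.541%) and 32 of 8558 by DESeq2 (0.374%). At an unadjusted p below 0.05 were 2 of these by either tool, against 719 of all genes by edgeR (7.94%). The median log2 change of the tested members was 0.04 in loop and -0.16 in distal tubule-like cells, and that of all genes -0.01 and -0.00. These counts depended on single mice, where the lone mouse left in a group is assumed to vary like the other group. S100g passed in loop cells without knockout mouse 2 (log2 change 2.49), without control mouse 3 (1.497) and without control mouse 4 (2.51), but not without knockout mouse 1 (0.96, adjusted p = 0.16). Without control mouse 4 Umod, Kcnj1 (0.55) and Calb1 passed too. Among distal tubule-like cells Calb1 (-1.40), Slc8a1 (-1.55) and Scnn1b (-0.95) passed without control mouse 3, and Kcnj1 (1.29) and Scnn1b (-0.63) without control mouse 4. The number of all genes called rose as well, to 248 in loop and 162 in distal tubule-like cells without control mouse 3 and to 2354 and 616 without control mouse 4. Over 19 classes 120 pairs of gene and class were tested, and 1 passed, against 620 of 171554 pairs over all genes (0.361%), while 19 of the 120 had an unadjusted p below 0.05 (15.8%, against 6.75% over all genes). Many of these pairs lay in classes where the gene was below free RNA. They include all those of S100g, at most 0.59 of free RNA outside its top 2 classes. The S100g level of loop cells, 896 CPM, was still above the median of 189 CPM over the classes other than distal tubule-like cells. The pairs below free RNA also include all those of Slc12a1, at most 0.81 of free RNA outside loop cells. The part of free RNA in this share was not tested.

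The pair that passed was Calb1 in cluster 4, 479 unnamed cells led by Epha4, Fgf8 and Spon1. Its level was 152 and 177 CPM in knockout and 55.0 and 75.5 CPM in control mice, with no overlap, and its log2 change was 1.31 (SE 0.18, adjusted p = 0.0036), beside 79 of 10630 genes called there (0.743%). Free RNA of Calb1 was at 137 CPM, within this range, and 3 cells held 32.4% of the UMIs. Without these 3 cells the levels were 87.8 and 74.5 CPM in knockout and 55.0 and 75.5 CPM in control mice, so that the groups overlapped. As these cells were cut by the level compared, the remainder is a description. The call was also lost without knockout mouse 2 (1.19, adjusted p = 0.0563), with cells assigned by the highest tag (0.98, adjusted p = 0.0702) and with cells clustered without the members and the list (0.97, adjusted p = 0.0616), 3 of 13 alternatives that gave 0.93 to 1.54. The 7 ureteric bud markers, which mark the class with the most Calb1, summed to 318 and 313 CPM in knockout and 229 and 269 CPM in control mice in this cluster. Of the 7, 4 were higher and 1 was lower in both knockout mice than in both controls, and none was at 0. The share of all genes higher in both was not counted, and the part of these markers in the result was not tested.

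In the collecting system, which the deletion does not target, Calb1 in ureteric bud-like cells stood at 2580.3 and 1969 CPM in knockout and 920.3 and 1475 CPM in control mice. Both knockout levels were higher, with a log2 change of 0.86 (SE 0.20) that did not pass over all genes (unadjusted p = 0.0014, adjusted p = 0.9999 by edgeR), and none of 9842 genes was called in this class (0.0%), with 352 at an unadjusted p below 0.05, while DESeq2 also called none and had 82. Without single mice the Calb1 change ran from 0.56 (control mouse 3 left out) to 1.23 (control mouse 4 left out), and it passed in both of these fits and with no filter on low counts, 3 of 14 alternatives, in which 26, 599 and 96 of all genes were called. The 7 ureteric bud markers summed to 1459 and 1027 CPM in knockout and 774 and 1356 CPM in control mice and overlapped. In principal-like cells Scnn1b stood at 203 and 187 CPM in knockout and 154 and 159.8 CPM in control mice, higher in both knockout mice, with a log2 change of 0.27 (SE 0.16, adjusted p = 0.937), where none of 10919 genes was called (0.0%), with 319 at an unadjusted p below 0.05, while DESeq2 called 1 and had 201. Nearly all principal-like cells of control mouse 3 formed a cluster of their own, in which 181 of 182 cells were its own.

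Among 43 further genes of salt, magnesium and calcium transport, 36 could be tested in each of the 2 main classes. None passed in loop cells by edgeR or by DESeq2, with 6 and 4 at an unadjusted p below 0.05. Over all genes edgeR had 824 of 10921 below that p (7.55%). The median log2 change was -0.00 against -0.01 over all genes. Cldn16, a claudin needed for calcium and magnesium uptake in the thick limb, had the highest log2 change, 0.78, and Ptger3, a prostaglandin receptor, the lowest, -0.77, and neither passed (adjusted p = 0.480 for both). In distal tubule-like cells 1 rose and 1 fell by edgeR, beside 0.541% of all genes called there. At an unadjusted p below 0.05 were 6 by edgeR and 5 by DESeq2, where edgeR had 719 of all 9054 genes (7.94%). The median log2 change was -0.13 against -0.00 over all genes. Klk1, tissue kallikrein, a protease made in the connecting tubule, stood at 381 and 816 CPM in knockout and 97.4 and 146 CPM in control mice, with no overlap, and its log2 change was 2.29 (SE 0.33, adjusted p = 0.0097). Inside subcluster 2 it was at 803 and 1937 CPM against 133 and 210.1 CPM. Klk1 has near-identical neighbours, so that the counting could have split reads between them. Scnn1g, the gamma subunit of the sodium channel, stood at 89.1 and 50.7 CPM in knockout and 163 and 171 CPM in control mice, with a log2 change of -1.26 (SE 0.24, adjusted p = 0.0468), a call lost without either knockout mouse (adjusted p = 0.114 and 0.422) and under 7 of 12 alternatives in all.

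The 3 subunits of the sodium channel had log2 changes of -0.89 (Scnn1a, SE 0.27, adjusted p = 0.278), -0.80 (Scnn1b) and -1.26 (Scnn1g) in distal tubule-like cells, and Scnn1a passed under 2 of 12 alternatives, which ran from -1.22 to -0.56 over all 12. Inside subcluster 2 Scnn1g was at 195 and 109 CPM in knockout and 249 and 246 CPM in control mice, without overlap, and Scnn1a at 85.7 and 73.5 CPM against 71.2 and 113 CPM, with overlap. Scnn1a and Fxyd2 were named after their values were seen. Fxyd2, the gamma subunit of the sodium pump, stood at 1019 and 1267 CPM in knockout and 2239 and 2865 CPM in control mice. Both knockout levels were lower, and the log2 change of -1.18 (SE 0.25) did not pass (adjusted p = 0.0665), although it did under 5 of 12 alternatives, among them DESeq2 and the fits without control mouse 3 or 4, and all 12 gave values from -1.42 to -0.95. Inside subcluster 2 Fxyd2 was at 1499 and 2617 CPM against 2669 and 3619.9 CPM. In cluster 4, 1 of 32 tested genes of the list passed, beside 0.743% of all genes. It was Cldn10, at 24.9 and 26.3 CPM in knockout and 64.5 and 60.1 CPM in control mice (log2 change -1.32, SE 0.20, adjusted p = 0.0087).

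Over the 16 named classes, the genes most like each member in log2(CPM + 1) were found among 10354 genes with at least 20 CPM in some class, as a description over classes that share libraries and free RNA. Umod was closest to Slc12a1 (r = 0.919), Car15 (0.875) and Ak7 (0.867), and Slc12a1 was closest to Ak7 (0.930). Scnn1b was closest to Scnn1g (0.986) and Spink8 (0.974), and Slc8a1 to Sh3bgrl3 (0.811) and Scnn1b (0.808). S100g was closest to Pgam2 (0.935), Defb1 (0.921) and Trpv5 (0.915), and Slc12a3 to Hbb-y (0.939) and Trpv5 (0.923). Kcnj1 was closest to Kng2 (0.962). The closest gene to Calb1 was Gm13652 (0.864), and that to Trpm6 was BC034090 (0.767).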

How the data were processed

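Kidney cells of 1 pool were run on the 10x platform as a gene expression library with a library of mouse-specific tags, and the authors deposited a matrix of UMI counts over 3921239 barcodes, made with Cell Ranger (6.0.0 in the submitters' processing notes, 4 in the matrix header). The 6 bulk samples of the series were not used here.

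Cells were called at a minimum of 6891 UMIs, filtered (at least 200 genes, at most 10% mitochondrial UMIs) and assigned to mice with HTODemux over the 8 tags in use (Seurat 5.3.0), which set aside 4575 cells with several tags, 2808 with none and 4540 of the unnamed tags. Scrublet marked 7.74% of the assigned cells, which were kept. Cells were clustered after SCTransform (3000 variable genes, 30 components, resolution 0.8) and named from markers, with some naming limits set after the clusters were seen. Counts were summed per mouse and class, because cells are not replicates, and tested with edgeR 4.0.16 (quasi-likelihood, filterByExpr, TMM, Benjamini-Hochberg threshold 0.05) for classes with at least 10 cells in every mouse. The study's own comparison was a rank test over cells. Each test has 2 against 2 mice. CPM values are shares of all gene UMIs of the cells summed. The edgeR test within classes was tried on simulated counts, and the other steps were not. The 9 genes, the list of 43 and the markers were chosen with earlier results of these data known, and named genes were the 9, list genes past the threshold and the 3 genes most alike. Some genes were named outside this rule, among them Scnn1a, Fxyd2 and Trpv6, and Cldn16 and Ptger3 as the ends of a range. Alternatives were DESeq2 1.42.0, no filter, leaving out each mouse, other assignments of cells, a minimum of 2500 UMIs, other resolutions and removal of doublets.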

Additional observations from a re-analysis of the deposited data

Results flagged for a closer look

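The change of S100g differed between loop of Henle-like and distal tubule-like cells of the same mice. The log2 change of knockout over control was 1.93 in loop cells and -0.28 in distal tubule-like cells, and the test of the difference gave -2.03 (SE 0.15, adjusted p = 1.19e-06 by edgeR). The SE and p-value borrow spread from all genes tested, and each genotype has 2 mice. The distal tubule level was 9.19 and 13.2 times the loop level in the knockout mice and 41.7 and 48.9 times in the control mice, so that the ratio was lower in both knockout mice. In loop cells 38 cells with at least 50 S100g UMIs held 76.5% of the UMIs. Both classes come from the same pool and share its free RNA, whose part in the difference was not tested.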

How the results depend on the processing

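The difference in S100g change between the classes passed under all 12 alternatives, from -2.55 to -1.76, and from -2.30 to -1.76 without single mice. The number of the 9 genes called was 1 in loop cells and 3 in distal tubule-like cells with no filter on low counts, and without single mice 0 to 4 and 0 to 3. Over all classes it was 14 with no filter, 3 with k-means and 3 with tags normalized per tag, 0 at resolution 0.4, 0 when clustered without the members and the list, and 2 to 28 without single mice. The share of all gene and class pairs called moved too, to 1.04% with no filter, 1.75% without control mouse 3 and 9.36% without control mouse 4, while it was 0.387% with k-means and 0.295% with tags normalized per tag. List genes called were 0 to 16 in loop cells without single mice. In distal tubule-like cells they were 6 with no filter, 1 each with the highest tag at 60 percent, tags normalized per tag, resolution 1.2 and doublets removed, and 1 to 9 without single mice. The cause was not tested.

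Slc12a1 in loop cells changed sign with DESeq2 (-0.0013) and with no filter (-0.012), and ran from -0.12 without knockout mouse 1 to 0.10 without knockout mouse 2. Without single mice Kcnj1 in loop cells ran from -0.094 (control mouse 3 left out) to 0.55 (control mouse 4), and Slc8a1 in principal-like cells from -0.17 to 1.33 in the same order. In distal tubule-like cells, with control mouse 3 and then 4 left out, Calb1 ran from -1.40 to 0.16 and Slc8a1 from -1.55 to 0.26, while S100g ran from -0.86 without knockout mouse 1 to 0.52 without control mouse 4. With tags normalized per tag S100g there was at 0.0054. Of 252 values for 29 results on 13 genes, 20 of them log2 changes and 9 shares of cells, 197 kept direction and side of the threshold, 25 newly passed, 19 were lost and 11 changed sign. At resolution 0.4 loop and distal tubule-like cells fell into 1 unnamed cluster of 1119 cells. Clustered without the members and the list, a cluster of 539 cells took the distal tubule name, with the loop score close behind (1.88 against 1.76). Another cluster of 98 cells took the loop name. Single values of these classes are not given for either setting, and the S100g difference between the classes was not tested in them. The tag share was taken over the 8 tags in use in place of the named tags, a choice made after seeing the data, as was tags normalized per tag. No paired analysis was possible because knockout and control embryos share no replicate number in the tag list. With 1 mouse left in a group, its spread is assumed to be that of the other group.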

Other observations

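Hbb-y, an embryonic globin, was the gene most like Slc12a3 over the classes (r = 0.939). In distal tubule-like cells it stood at 0.8 and 0 CPM in knockout and at 119.6 and 0 CPM in control mice. Its UMIs there lay almost wholly in control mouse 3. In the intercalated-like class 6 of 87 cells held 92.6% of the S100g UMIs.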
